A study of Mus musculus with 6 samples.

Results

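The baseline microRNA (miRNA) repertoire of endothelial progenitor cell (EPC) cultures was described from the 3 air libraries of a series of 6 small RNA libraries. The members were chosen by their label, with earlier results of these data known. Every air library of the series, from mice exposed to filtered air, was taken. The 3 libraries from mice exposed to concentrated ambient particulate matter (CAP) were left aside. No comparison of the air and CAP groups was made. EPCs are marrow-derived cells that are cultured in medium meant to bring out endothelial properties, and the name rests on the culture method rather than on a purified cell type.

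All mice were males of the C57BL/6 strain (C57BL/6J in the study's methods), obtained at 11 weeks of age and acclimated for 1 week. The air group breathed HEPA-filtered air for 6 h per day over 30 consecutive days, and its 3 mice shared 1 cage. Bone marrow cells were then cultured, for 12 days per the labels and 10 days in the methods, and total RNA was taken from each culture. The methods give 3 mice and 3 biological replicates for the group, so the spread given here is taken as that between mice of 1 cage, with culture and library preparation included. Bulk libraries measure a mixture, in which fewer cells of a type and less RNA per cell cannot be told apart.

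A miRNA is cut from a hairpin precursor, whose 5′ arm and 3′ arm each give a short mature strand (named 5p and 3p). In most precursors one strand is loaded into an Argonaute protein and kept, and the other is degraded. Bases 2 to 8 of the loaded strand, the seed, pair with target mRNAs, so miRNAs with the same seed form a family with overlapping targets. Some miRNAs are enriched in a few cell lineages: miR-126a in endothelial cells, but also in haematopoietic stem and progenitor cells and megakaryocytes, miR-142a in blood cells, miR-223 in myeloid cells, miR-143 and miR-145a in smooth muscle and other mesenchymal cells.

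The mature sequences below are those of the leading members of the 10 seed families with the highest summed level, shown because the family ranks below rest on them. They were read from RefSeq (GRCm38.p6), 5′ to 3′, with the seed in capitals.

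let-7f-5p: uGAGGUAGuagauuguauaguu
let-7a-5p: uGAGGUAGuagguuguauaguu
let-7c-5p: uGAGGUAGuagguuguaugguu
miR-125b-5p: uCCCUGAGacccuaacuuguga
miR-125a-5p: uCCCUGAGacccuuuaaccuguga
miR-351-5p: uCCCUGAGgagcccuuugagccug
miR-21a-5p: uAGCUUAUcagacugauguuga
miR-29a-3p: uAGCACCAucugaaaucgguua
miR-29b-3p: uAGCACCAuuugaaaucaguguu
miR-29c-3p: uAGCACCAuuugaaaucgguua
miR-16-5p: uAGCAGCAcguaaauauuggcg
miR-15a-5p: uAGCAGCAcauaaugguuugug
miR-15b-5p: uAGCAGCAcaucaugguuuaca
miR-199a-3p: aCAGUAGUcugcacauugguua
miR-199b-3p: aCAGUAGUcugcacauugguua
miR-223-3p: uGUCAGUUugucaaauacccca
miR-142a-3p: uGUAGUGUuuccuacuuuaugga
miR-26b-5p: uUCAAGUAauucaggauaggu
miR-26a-5p: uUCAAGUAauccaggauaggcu
miR-34a-5p: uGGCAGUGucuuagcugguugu
miR-34b-5p: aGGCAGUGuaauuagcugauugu

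The miR-199a-3p and miR-199b-3p strands have 1 sequence between them, so a read of one is a read of the other and both names held nearly the same counts. The strands shown start with U except miR-199a-3p, miR-199b-3p and miR-34b-5p, which start with A.

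The table listed 1915 mature names on 1193 precursors in 2061 rows. With 1 row kept per name, the libraries held 16529487, 16141419 and 15547921 counts for air replicates 1, 2 and 3, and levels are given as CPM, counts scaled to a total of 1000000 per library. At this depth a count of 0 allowed a level of up to 0.181 to 0.193 CPM, a floor of 3 counts that covers counting error only. In the air group 1135 ± 21.8 names were detected with at least 1 count (SD, n = 3), of which 943 were detected in all 3 libraries. A further 164 names were detected in exactly 2 libraries and 249 in exactly 1, and 559 had no count in any. Names missing from 1 library or more were rare, with a mean of at most 0.491 CPM, and held 0.00228% of counts.

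Few miRNAs made up most of the repertoire. The highest name of a library held 12.6 ± 0.379% of its counts, the 10 highest held 52.8 ± 0.644% and the 50 highest held 91.4 ± 0.222% (SD, n = 3). Between 9 and 10 names held 50% of a library's counts, 45 to 47 held 90% and 158 to 162 held 99%. In all 3 libraries, 560 names reached 1 CPM, 335 reached 10 CPM, 180 reached 100 CPM, 73 reached 1000 CPM, 24 reached 10000 CPM and 2 reached 100000 CPM. The libraries put nearly the same miRNAs first: 9 names were among the 10 highest of every library, 18 among the 20 highest and 47 among the 50 highest.

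**Figure D1:**
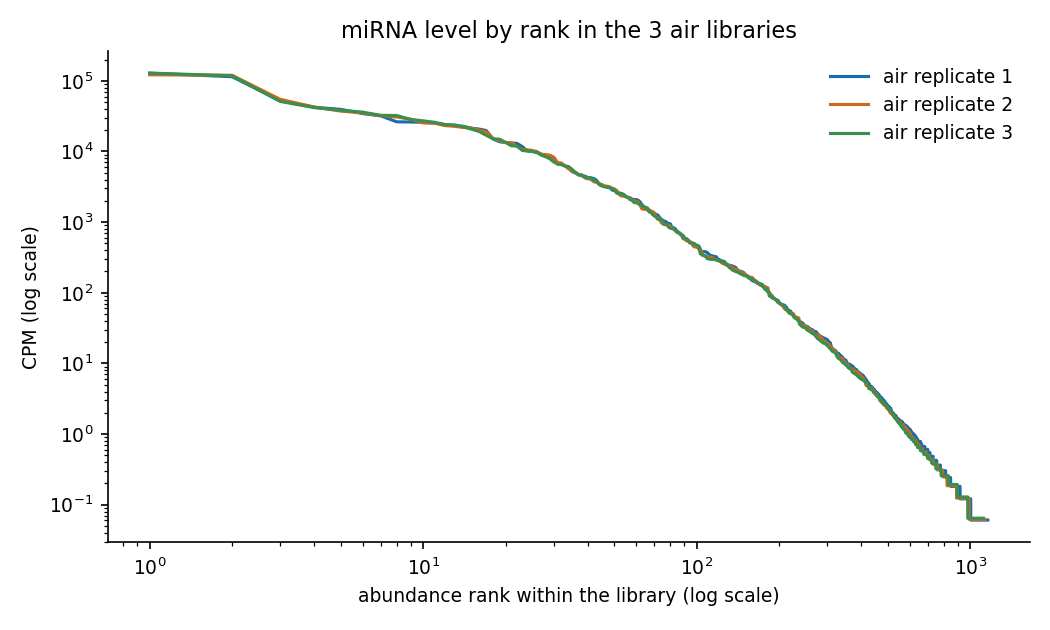
Level of each detected miRNA name in CPM (vertical axis, log scale) against its abundance rank within the library (horizontal axis, log scale), 1 line for each of the 3 air libraries. The 3 lines lie on each other from 2 names above 100000 CPM down to single counts.

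The 2 names above 100000 CPM were miR-125b-5p and miR-21a-5p. miR-125b-5p, a regulator of haematopoietic and stromal cell growth and survival, had 128407, 119919 and 128765 CPM. miR-21a-5p, abundant in most cultured cells and in activated macrophages and fibroblasts, had 114503, 122035 and 118093 CPM. Their ranges overlapped, and miR-21a-5p was the higher of the pair in air replicate 2 only. miR-16-5p, which restrains cell cycle genes, came next at a distance, with 52344, 54753 and 51120 CPM.

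The next 4 names belonged to the let-7 and miR-29 families. let-7f-5p, of the let-7 family that accompanies differentiation, had 42278, 42591 and 41785 CPM and held rank 4 in every library. miR-29a-3p, which targets collagen and other matrix mRNAs, had 39427, 37270 and 38375 CPM and held rank 5 in every library. let-7a-5p had 35243 ± 812 CPM and rank 6 in every library, and miR-29b-3p had 30383 ± 1792 CPM (SD, n = 3). From rank 3 to rank 6 the ranges of neighbouring names did not overlap.

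Ranks 8 to 11 were taken by miRNAs of blood and mesenchymal cells, and their order changed between libraries. miR-223-3p, the myeloid miRNA, had 25913, 32111 and 27149 CPM and was highest in air replicate 2. miR-199a-3p, found mainly in mesenchymal cells, had 26299, 25353 and 32472 CPM and was highest in air replicate 3, and miR-199b-3p stood at 99.4 to 99.5% of it in every library. miR-142a-3p, found in blood cells of all kinds, had 25227, 28598 and 24022 CPM. The ranges of these 4 names overlapped.

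Ranks 12 to 20 ran from 24386 to 13636 CPM in the mean. They held 3 further let-7 strands (let-7c-5p at 24386 ± 1377, let-7i-5p at 21143 ± 393 and let-7b-5p at 14032 ± 948 CPM), the p53-induced miR-34a-5p (23225 ± 523 CPM) and the smooth muscle and mesenchymal miR-143-3p (21765 ± 1463 CPM). The miR-23, miR-27 and miR-24 strands, which come from shared transcripts, gave miR-24-3p (20615 ± 1341 CPM), miR-23a-3p (18552 ± 1469 CPM) and miR-27b-3p (13636 ± 535 CPM). miR-26b-5p, from an intron of a phosphatase gene, had 15088 ± 195 CPM (SD, n = 3 for all). Among these 9 names the largest mean was less than 2-fold the smallest, and levels of different miRNAs carry the ligation and amplification bias of the library kit.

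In the GRCm38 assembly, which the mm10 build of the files denotes, several of these miRNAs lay within other genes. The miR-21a precursor was at chr11:86584067-86584158 on the minus strand, in an exon of Vmp1, a gene of autophagy. The miR-223 precursor was at chrX:96242817-96242926 on the plus strand, in an exon of the non-coding F630028O10Rik. The miR-142a precursor was at chr11:87756864-87756927 on the plus strand, in an intron of the non-coding Mir142hg. miR-125b-5p had precursors on chromosomes 9 (chr9:41581926-41582002) and 16 (chr16:77646273-77646343), both within long non-coding genes, and a read of the mature strand cannot be assigned to either. In all, 81 names came from more than 1 precursor and held 40.5% of counts.

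miRNAs of 11 lineage lists (83 names, all in the table) were summed per library. The stromal and smooth muscle list was highest, with 83977, 79169 and 97452 CPM. The haematopoietic, myeloid and endothelial lists followed at 34942 ± 3606, 33846 ± 3498 and 31755 ± 1818 CPM (SD, n = 3), and their ranges overlapped. The other lists stayed at 655 CPM or less in every library. Of the stromal sum, miR-199a-3p and miR-199b-3p, which are 1 sequence, made up most, and with 1 name per sequence the stromal sum was 60702 CPM, still above the other lists.

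**Figure D2:**
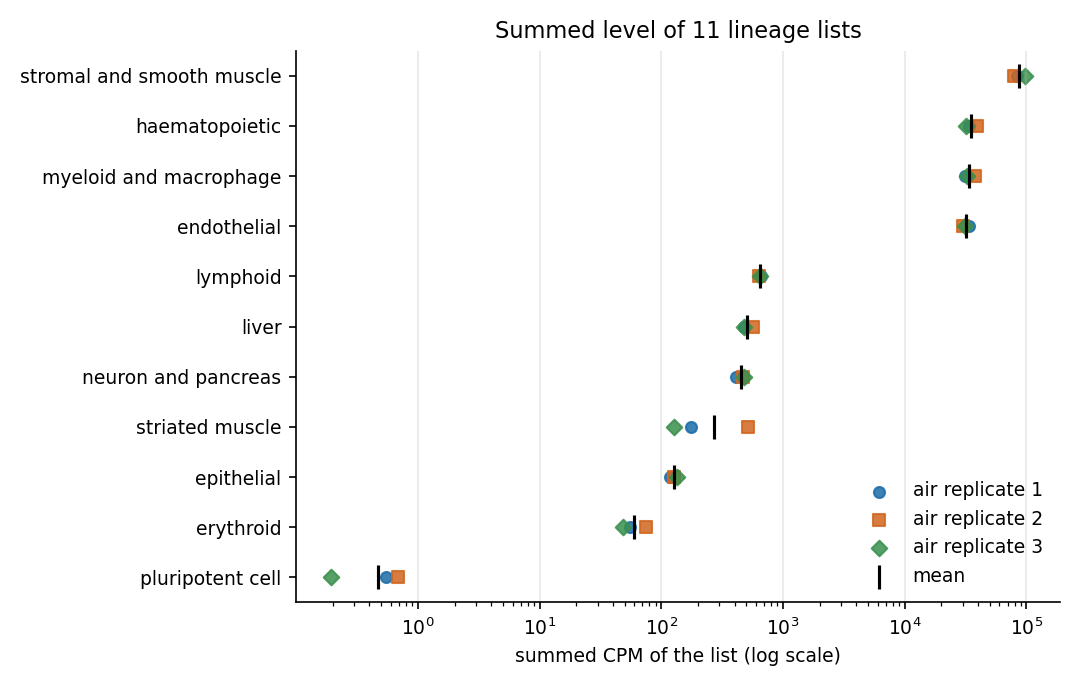
Summed CPM of 11 lineage lists (horizontal axis, log scale), with 1 point for each of the 3 air libraries and a bar at the mean. Stromal, haematopoietic, myeloid and endothelial lists lie at 30082 CPM or more, the other lists at 655 CPM or less, and the striated muscle list stands apart in air replicate 2 with 514 CPM.

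The endothelial list had 8 of its 11 members at 100 CPM or more in every library, but its sum did not come mainly from miR-126a. miR-31-5p, which is also expressed in fibroblasts and epithelial cells, led it with 13028, 11893 and 10345 CPM (37.0% of the sum). miR-221-3p, found in endothelial, smooth muscle and blood progenitor cells, had 11780, 10580 and 9761 CPM. These 2 names were highest in air replicate 1 and lowest in air replicate 3. The other members at or above 1000 CPM in the mean, such as miR-10a-5p (1728 ± 270 CPM), miR-130a-3p (1596 ± 76.6 CPM), miR-218-5p (1466 ± 112 CPM) and miR-222-3p (1155 ± 92.4 CPM), are likewise expressed outside the endothelium.

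miR-126a-3p, an endothelial miRNA that blood progenitor cells also express, was present in every library and varied more than any other name above 1000 CPM. It had 2216, 1521 and 3896 CPM (rank 57, 64 and 42), a 2.56-fold range, with the highest level in air replicate 3. The other strand of its precursor, miR-126a-5p, had 657, 438 and 1085 CPM and moved with it, so that the 3p strand stood at 3.37, 3.47 and 3.59 times the 5p strand. The precursor was at chr2:26591357-26591429, in an exon of Egfl7, a gene of endothelial cells. miR-10a-5p (1603, 1542 and 2038 CPM) and miR-10b-5p (79.9, 59.7 and 83.2 CPM), which differ from each other by 1 base, had the same order of libraries over a narrower range. miR-31-5p, miR-221-3p, miR-222-3p, miR-130a-3p and miR-218-5p did not.

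The blood cell miRNAs miR-223-3p and both arms of miR-142a stood above miR-126a-3p in every library, although the cultures carry an endothelial name. miR-223-3p was 11.7, 21.1 and 6.97 times miR-126a-3p, and miR-142a-3p was 11.4, 18.8 and 6.17 times. Both ratios were highest in air replicate 2, where miR-126a-3p was lowest, and lowest in air replicate 3. The other members of the blood lineage lists were below miR-126a-3p in every library, except miR-342-3p, which was below it in air replicate 3 only. The haematopoietic sum came from both arms of miR-142a, with miR-142a-3p at 74.3%, and both arms were highest in air replicate 2.

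The myeloid and macrophage list was led by miR-223-3p, which made up 83.9% of its sum. miR-342-3p, from an intron of Evl, had 3400, 3648 and 3078 CPM. The inflammation-induced miR-155-5p and miR-146a-5p were lower, with 717, 658 and 587 CPM for miR-155-5p and 583, 691 and 1050 CPM for miR-146a-5p. The 2 strands of miR-511, from an intron of the macrophage receptor gene Mrc1, had 75.4 ± 8.02 (3p) and 73.2 ± 8.38 CPM (5p). Members of the list did not share a highest library: 6 of 10 were highest in air replicate 2, 1 in air replicate 1 and 3 in air replicate 3.

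miRNAs of other blood lineages were rare. miR-150-5p, which marks mature B and T cells, had 12.5, 16.4 and 15.0 CPM, and miR-223-3p was 1812 to 2079 times that level. The lymphoid list reached 648 ± 11.3 CPM mainly through miR-181a-5p (417 ± 13.0 CPM), which many other cells also express. miR-451a, the miRNA of red cell precursors, had 5.08, 9.66 and 5.02 CPM, and the erythroid list summed to 55.0, 75.4 and 48.2 CPM. Within that list 5 of the 6 members at 1 CPM or more were highest in air replicate 2. Of these, miR-486a-5p (331, 409 and 275 counts) and miR-486b-5p (326, 408 and 272 counts) may be 1 set of reads under 2 names. The number of members and the list sum may thus hold these reads more than once.

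The stromal and smooth muscle list had 10 of 12 members at 100 CPM or more in every library. miR-143-3p had 22710, 20080 and 22505 CPM, and miR-145a-5p, processed from the same transcript, had 2047, 1934 and 2084 CPM. Their ratio stayed between 10.4 and 11.1. miR-199a-5p had 5171, 5129 and 6277 CPM, and miR-214-3p, encoded beside it in Dnm3os, had 552, 499 and 651 CPM. Of the 12 members, 9 were highest in air replicate 3 and 3 in air replicate 1, and all 12 were highest in air replicate 3 after scaling with TMM (trimmed mean of M values), which sets libraries level on the bulk of miRNAs rather than on total counts.

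miRNAs of cell types outside marrow cultures were low. The epithelial list, with the miR-200 family, summed to 117, 128 and 135 CPM, and its defining miR-200c-3p had 6.35, 7.99 and 5.92 CPM. In the liver list the defining miR-122-5p had 106, 147 and 73.0 CPM, while miR-192-5p (213 ± 14.1 CPM) and miR-194-5p (185 ± 13.2 CPM), also made in gut and kidney, gave most of the sum. In the neuron and pancreas list miR-124-3p had 0.121, 0.434 and 0.450 CPM and miR-375-3p was at 0 in air replicate 1, whereas miR-9-5p (272 ± 25.8 CPM), also known from myeloid cells, held 60.3% of the sum. Pluripotent cell miRNAs summed to less than 1 CPM in every library, with 4 of 10 at 0 in all libraries and the others at 0.248 CPM or less.

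The striated muscle list was uneven between the libraries, with sums of 175, 514 and 127 CPM. miR-206-3p, of skeletal muscle, had 51.9, 247 and 32.5 CPM, miR-1a-3p had 86.9, 171 and 67.9 CPM and miR-133a-3p had 30.6, 79.4 and 19.8 CPM. miR-133b-3p, encoded beside miR-206, had 1.03, 12.1 and 0.836 CPM. All 4 were highest in air replicate 2 and lowest in air replicate 3. miR-499-5p, of heart and slow muscle, did not share this order (4.78, 4.77 and 5.53 CPM), and miR-208a-3p was at 0 in air replicates 1 and 2. The level of the pair from 1 locus, miR-206-3p and miR-133b-3p, spanned 7.60-fold and 14.5-fold.

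Grouping by seed placed 1623 names with a RefSeq sequence (94.9% of counts) in 1352 families, of which 1173 had 1 name. The other 292 names, among them miR-143-3p, miR-23b-3p, miR-30d-5p and miR-34c-5p, are in no family sum. The 5 highest families held 55.0% of all counts and the 10 highest 71.0%, and 41 families reached 1000 CPM. The let-7 family, spelled GAGGUAG in the seed, came first although no member of it was among the 3 highest names.

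The let-7 family summed to 162071, 162541 and 165528 CPM over 11 names, of which 9 were at 100 CPM or more. Its level was spread over its members: let-7f-5p held 25.8%, let-7a-5p 21.6% and let-7c-5p 14.9% of the sum. The miR-125 family summed to 138316, 129040 and 139275 CPM and was 92.7% miR-125b-5p, with 7.06% from miR-125a-5p and 0.205% from miR-351-5p. The miR-21 family (114514, 122047 and 118103 CPM) was 1 miRNA in effect, as miR-21a-5p held all but 0.00945% of it. The ranges of these 3 families did not overlap. With the rows of a name summed, which counts 2-copy strands such as miR-125b-5p at both precursors, let-7 (187179 ± 2081 CPM) and miR-125 (184982 ± 6773 CPM) differed by less than the SD of miR-125, and miR-21 had 83915 CPM.

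The miR-29 family followed with 74444, 71425 and 69655 CPM, from miR-29a-3p (53.4%), miR-29b-3p (42.3%) and miR-29c-3p (4.32%). The miR-16 family had 60153, 63170 and 58705 CPM, of which miR-16-5p gave 86.9% and miR-15a-5p and miR-15b-5p 4.51% and 4.50%. The miR-199-3p family had 52444, 50559 and 64783 CPM, or 28864 CPM in the mean when its single sequence was counted once, which leaves it near the next family. The miR-29 family stood above miR-16 in every library, but with the rows of a name summed the order turned, with 80408 CPM for miR-16 and 72411 CPM for miR-29. The ranges of the miR-16 and miR-199-3p families overlapped.

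The families of miR-223-3p, miR-142a-3p, miR-26 and miR-34 closed the 10 highest with 28391 ± 3280, 25949 ± 2372, 25832 ± 1009 and 23893 ± 529 CPM. miR-223-3p and miR-142a-3p had no other name with their seed. The miR-26 family was shared by miR-26b-5p (58.4%) and miR-26a-5p (41.6%), and the miR-34 sum was 97.2% miR-34a-5p, with miR-34b-5p at 2.74%. miR-34c-5p, at 2457 ± 111 CPM, had no sequence and is not in that sum. When names without a sequence were placed by number and arm, the miR-34 family had 26350 CPM beside 25832 CPM for miR-26, and the miR-23 family, at 18552 CPM otherwise, had 25273 CPM. The order of these families therefore rests on which names have a sequence.

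**Figure D3:**
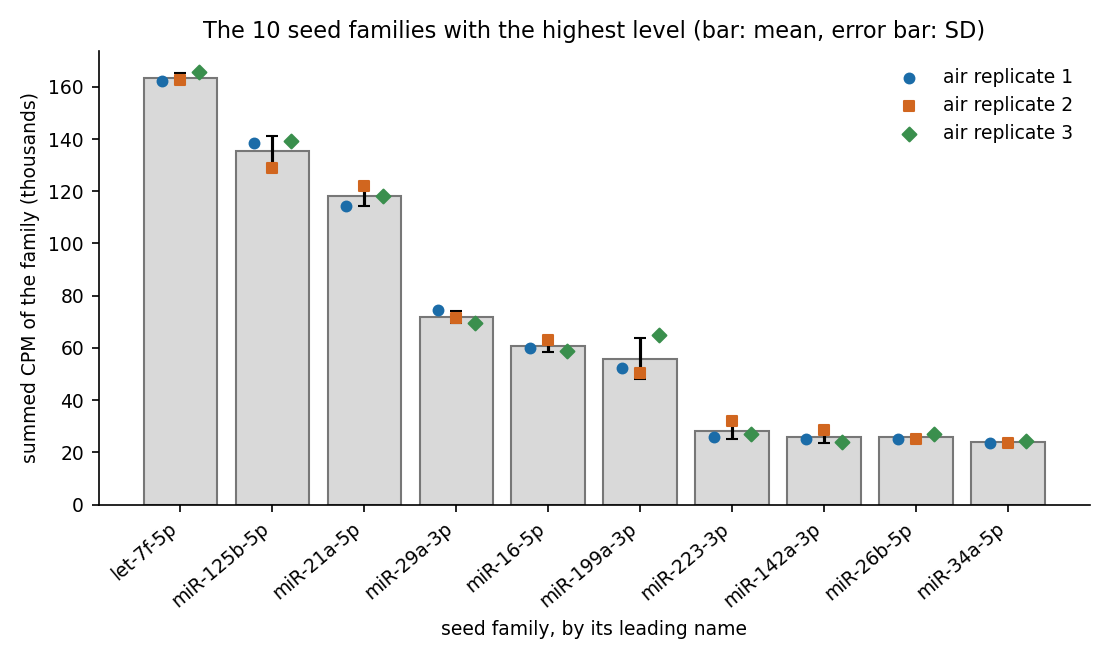
Summed CPM, divided by 1000, of the 10 seed families with the highest level (bars: mean, error bars: SD, n = 3), each named by its leading member, with 1 point for each air library. The let-7, miR-125 and miR-21 families lie at 114514 CPM or more in every library, and the miR-199a-3p family shows the widest error bar, with 64783 CPM in air replicate 3.

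Many abundant names differ by 1 base or less over their first 20 bases, so that reads with an error or a trimmed end can be counted at the wrong name. Among names paired with one at 1000 CPM or more, 17 such pairs were found. let-7j stood at 14.9, 15.1 and 15.7% of let-7i-5p, and miR-107-3p, which equals miR-103-3p over those bases, at 10.3, 10.1 and 10.5% of it. miR-7b-5p stood at only 0.147, 0.158 and 0.153% of miR-7a-5p, from which it also differs by 1 base. Other pairs varied more, such as miR-26a-5p at 67.7, 65.4 and 80.7% of miR-26b-5p and let-7k at 0.114, 0.118 and 0.189% of let-7b-5p. Whether reads were misassigned was not tested.

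The abundant strands also shared features that their ranks did not use. U was the first base of 70.3% of the 64 names at 1000 CPM or more that had a sequence, of 36 of the 90 names at 100 to 1000 CPM, and of 32.8% at 10 to 100 CPM, 40.8% at 1 to 10 CPM and 39.3% below 1 CPM, beside 40.2% of all 1623 names. Weighted by counts, 79.8% of the reads with a sequence belonged to names that start with U. Names of 22 bases held 76.8% of these counts, beside 45.1% of all names. The median GC content was 40.9% at 1000 CPM or more and 52.2% over all names. These are descriptions across miRNAs, which are not independent replicates, and families share their sequences.

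For arm dominance, 184 precursors were taken whose 5p and 3p names occur on no other precursor and sum to at least 10 CPM in the mean. This rule compares names, so some of these pairs still hold reads that fit other precursors. For example, miR-669o-3p had the same 577, 542 and 494 CPM as miR-669a-3p. The 5p arm held more than 50% of the pair in all 3 libraries in 107 precursors (58.2%) and the 3p arm in 74. In the other 3 the dominant arm was not the same in every library. The dominant arm held 97.2% of its pair in the median, at least 90% in 132 precursors and at least 99% in 61, while 26 precursors were below 75%. The share of 5p dominance was alike over the levels, with 31 of 55 pairs at 1000 CPM or more, 38 of 62 at 100 to 1000 CPM and 38 of 67 at 10 to 100 CPM. Precursors that share a mature name with another were kept apart and had 53 of 99 pairs with a dominant 5p arm. These 99 are not separate pairs, since copies such as those of mir-669a and mir-467a repeat the same counts.

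The hairpins below are those of 1 precursor with a near-complete 5p bias, 1 with a near-complete 3p bias, 1 abundant precursor that kept both arms and 1 near even, shown to place the strands whose shares follow. They are RefSeq precursors on GRCm38.p6, 5′ to 3′, with both mature strands in capitals, the 5p strand first.

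mir-21a: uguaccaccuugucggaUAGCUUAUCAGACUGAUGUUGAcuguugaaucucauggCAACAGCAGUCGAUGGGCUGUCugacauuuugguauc
mir-223: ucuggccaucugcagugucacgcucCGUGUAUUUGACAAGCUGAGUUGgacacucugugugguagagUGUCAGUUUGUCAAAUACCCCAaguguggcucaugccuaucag
mir-142a: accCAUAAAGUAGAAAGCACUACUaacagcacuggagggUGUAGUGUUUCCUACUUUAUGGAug
mir-674: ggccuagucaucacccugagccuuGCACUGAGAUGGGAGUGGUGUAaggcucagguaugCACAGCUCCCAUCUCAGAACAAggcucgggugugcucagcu

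Most of the 10 most abundant pairs had 1 strand in near-complete excess. In mir-21a the 5p strand held 99.2, 99.3 and 99.3% of the pair. In mir-223 it held 0.553, 0.566 and 0.553%, so that the 3p strand was 178 times as abundant. In mir-23a, which had the most uneven of these pairs, the 5p strand held 0.0242, 0.0235 and 0.0285%. In the mean the 5p strand held 98.9% or more in mir-34a, let-7i and mir-26b and 2.12% or less in mir-29a, mir-199b and mir-143. The share of mir-199b cannot be read as its own arm bias. Its 3p strand has the sequence of miR-199a-3p, so the 3p counts can include reads of the mir-199a precursors. In mir-199a-2, which shares those reads, the 5p strand held 16.5% in the mean.

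mir-142a was the exception among them. Its 5p strand held 25.7, 26.5 and 24.7% of the pair, at 8744, 10334 and 7898 CPM, so that both strands ranked among the 30 highest names. Further abundant precursors kept a minor strand at a like share: mir-140, with a 5p share of 22.8, 22.1 and 21.4%, and mir-126a, with 22.9, 22.4 and 21.8%. For mir-126a the share was thus nearly constant while each strand's level spanned more than 2-fold. The median SD of the 5p share was 0.0733 percentage points at 1000 CPM or more and 1.17 points at 10 to 100 CPM.

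The pairs closest to even were mir-466m, mir-511, mir-664, mir-674 and mir-434. mir-674 was the most abundant of them, at 1006 CPM for both strands, and its 5p strand held 52.7, 54.9 and 55.4%. In mir-511 the 5p strand held 47.6% in air replicate 1 (95% exact binomial interval 45.5 to 49.7%), 49.4% in air replicate 2 (47.5 to 51.3%) and 50.7% in air replicate 3 (48.6 to 52.8%). mir-434 and mir-466m, the other 2 precursors without a constant dominant arm, had at most 440 counts of both strands per library, and their 5p shares were 49.3, 58.2 and 55.8% and 50.7, 47.2 and 52.5%. The intervals treat reads as independent molecules and cover counting error only, so they are too narrow where reads are copies of 1 molecule. With that limit, 50% lay outside the interval in air replicate 1 for mir-511 and in air replicates 2 and 3 for mir-434, and inside it in every library for mir-466m.

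Of 136 pairs whose strands both had a sequence, the dominant strand started with U in 74 (54.4%) and the other strand in 28 (20.6%). The dominant strand alone started with U in 59 pairs and the other strand alone in 13. This held for either arm, with U at the start of the dominant strand in 51 of 86 pairs with a dominant 5p arm and 23 of 50 with a dominant 3p arm. In mir-21a and mir-223 above, the dominant strand starts with U and the other with C.

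**Figure D4:**
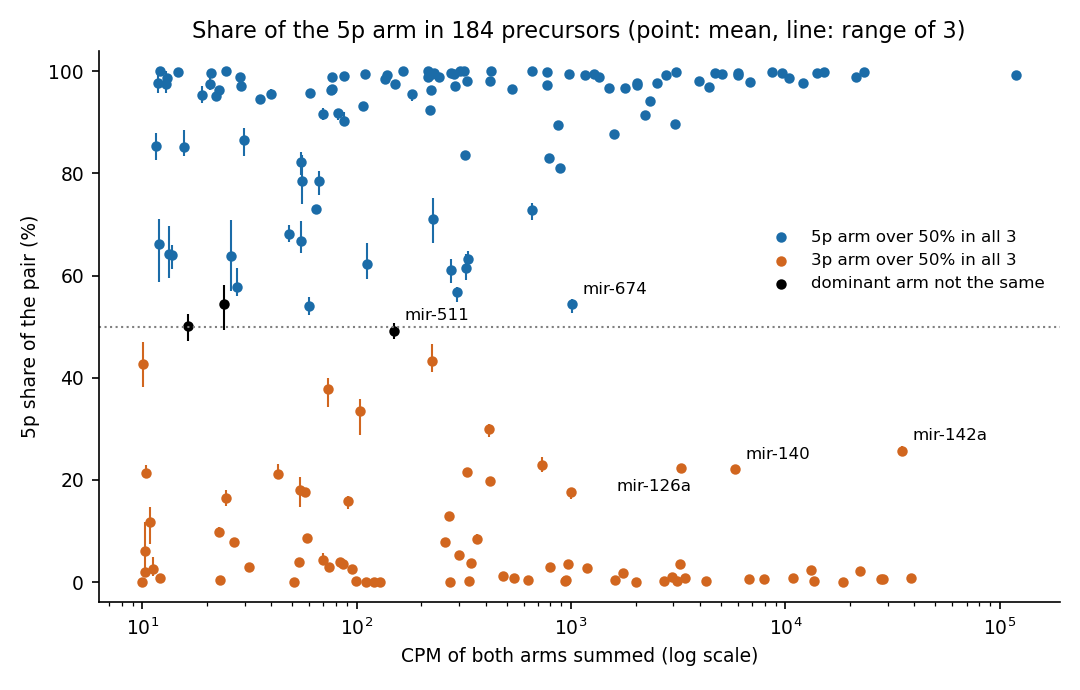
Share of the 5p strand in the counts of both strands (vertical axis, percent) against their summed level (horizontal axis, CPM, log scale) for 184 precursors, with points at the mean and lines over the range of 3 air libraries. Most points lie near 0 or 100%, and mir-142a, at 25.7%, is the most abundant precursor away from both ends.

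Precursors within 10 kb of each other on 1 strand are often processed from 1 transcript. By this rule 322 precursors fell into 77 clusters, which held 48.6% of counts, and the 5 highest clusters held 22.4%. With 50 kb instead, clusters held 63.3% of counts. At 10 kb the cluster of mir-16-1 and mir-15a at chr14:61631880-61632110, in the Dleu2 locus, was highest with 55076, 57853 and 53684 CPM. Nearly all of it was miR-16-5p. This rank rests on the distance and on the row kept for each name. mir-125b-1, where the 125697 CPM of miR-125b-5p were kept, lies within 50 kb of let-7a-2 in the same long non-coding gene, 3110039I08Rik. At 50 kb these precursors fall into 1 cluster, above that of mir-16-1. As to the rows, let-7a-5p and let-7f-5p were kept at let-7a-2 (35243 CPM) and let-7f-2 (42218 CPM). Their rows at let-7a-1 and let-7f-1 held nearly as much, 35168.5 and 40913 CPM. The cluster of these 2 precursors with let-7d was left with 10692 CPM, and would rank above mir-16-1 if those rows were counted there. Since miR-16-5p is also encoded by mir-16-2, its counts may come from either locus. The cluster of mir-23a, mir-27a and mir-24-2 at chr8:84208518-84208921 had 48780, 49200 and 43285 CPM, and here 3 strands contributed, led by miR-24-3p with 43.8%.

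The other leading clusters were let-7f-2 with mir-98 (chrX:151912346-151913321, 43743 ± 471 CPM), let-7c-2 with let-7b (chr15:85706603-85707403, 38740 ± 2318 CPM) and mir-29a with mir-29b-1 (chr6:31062660-31063093, 38694 ± 1102 CPM). In the first of them let-7f-5p gave 96.5% and miR-98-5p little, whereas let-7c-5p gave 62.9% of the second. Multi-copy strands were assigned to the precursor with the highest count, which places miR-29b-3p outside the mir-29a cluster.

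The 3 libraries were close to each other. Across 1263 to 1286 names with a count in at least 1 library of a pair, log2(CPM + 1) correlated with Pearson's r of 0.996 to 0.997 and Spearman's rho of 0.932 to 0.937, as a description over miRNAs that share the same libraries. As a check for a library deposited more than once, a chi-square statistic of the counts over miRNAs was divided by its degrees of freedom. It was 42.4 for air replicates 1 and 2, 70.3 for 1 and 3 and 103 for 2 and 3, and all libraries were kept. Of 351 names at 10 CPM or more in the mean, 2, 2 and 8 differed by more than 2-fold within these pairs.

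The spread was small for abundant names and larger than counting error for most. At 1000 CPM or more the median coefficient of variation (CV, SD over mean of 3 CPM) was 6.51% over 73 names, beside 0.365% from counting error alone. It was 8.02% over 110 names at 100 to 1000 CPM (counting 1.53%), 10.6% over 168 names at 10 to 100 CPM (counting 4.74%) and 18.3% over 253 names at 1 to 10 CPM (counting 14.9%). Thus counting error was near the observed spread only below 10 CPM. Of the 183 names at 100 CPM or more, 53 had a CV below 5% and 9 a CV above 20%, which became 16 without air replicate 2. Air replicate 1 was the highest library for 87 of these names, air replicate 2 for 47 and air replicate 3 for 49. This order depended on the scaling, since TMM gave 38, 57 and 88 names.

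**Figure D5:**
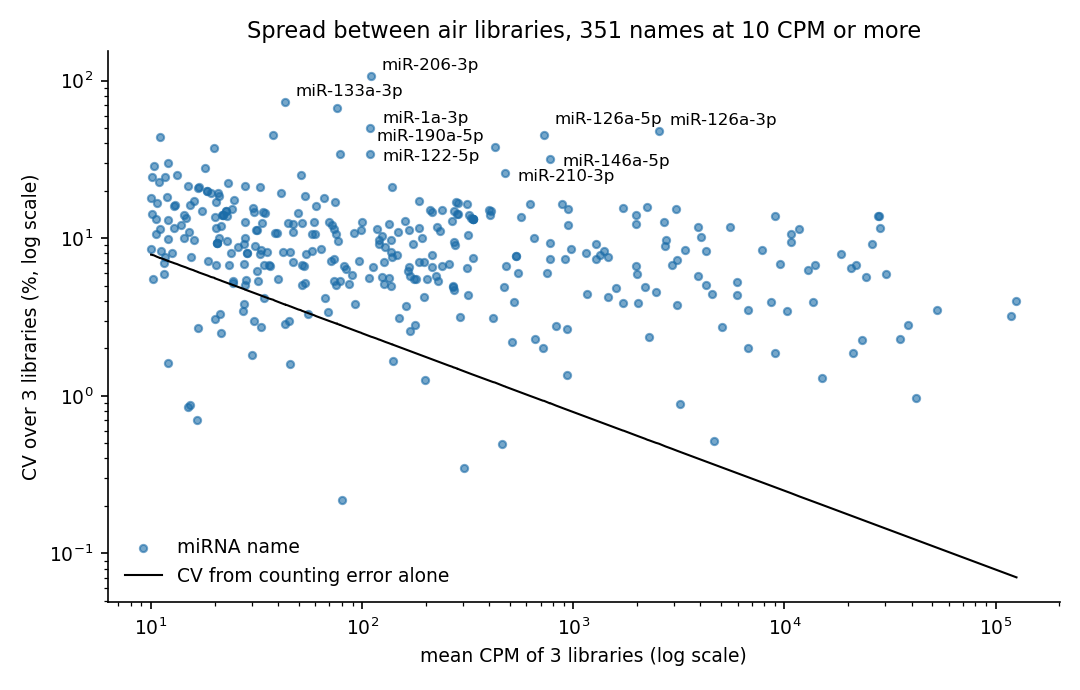
CV of the CPM over 3 air libraries (vertical axis, percent, log scale) against the mean CPM (horizontal axis, log scale) for 351 miRNA names at 10 CPM or more. The line gives the CV that counting error alone would produce, and most names lie above it, with miR-206-3p at 107% and miR-126a-3p at 48.0%.

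The widest spread was far above counting error, and part of it belonged to lineage miRNAs. Among names at 100 CPM or more, miR-206-3p had a CV of 107% and miR-1a-3p of 50.4%, both from their level in air replicate 2. miR-126a-3p and miR-126a-5p had 48.0% and 45.3%, from their level in air replicate 3. miR-190a-5p, from an intron of Tln2, had 328, 335 and 612 CPM, and miR-146a-5p and miR-199b-5p (120, 124 and 173 CPM) were likewise highest in air replicate 3. The hypoxia-induced miR-210-3p had 337, 573 and 510 CPM and was low in air replicate 1. miR-122-5p and miR-5099 (213, 193 and 151 CPM) complete the 10, of which 9 were also among the 10 widest after TMM scaling.

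In all, 9 of 351 names at 10 CPM or more (2.56%) had a highest library more than 2-fold above the lowest. They were miR-206-3p, miR-133a-3p and miR-1a-3p of muscle, both strands of miR-126a, miR-122-5p, miR-204-5p, miR-7043-3p and miR-335-5p. miR-204-5p, known from pigment epithelium and mesenchymal cells, had 43.2, 50.4 and 134 CPM, and miR-335-5p, from an intron of the imprinted gene Mest, had 37.9 ± 17.1 CPM (SD, n = 3) with 57.5 CPM in air replicate 3. These 2, like miR-126a, were highest in air replicate 3, while the muscle names and miR-122-5p were highest in air replicate 2. These muscle names and miR-126a thus moved between libraries of 1 group. By CPM the endothelial list as a whole did not follow miR-126a. Of its 10 members at 1 CPM or more, 5 were highest in air replicate 1 and 5 in air replicate 3. This depended on the scaling. After TMM scaling the list summed to 31989, 30161 and 33080 CPM, which is the library order of miR-126a over a narrower range. By TMM 4 of the 10 members were highest in air replicate 1 and 6 in air replicate 3. The part of any cell type in the spread of other names was not tested.

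The names with the narrowest spread were set by the scaling. By CPM, miR-224-5p had 302, 301 and 303 CPM, a CV of 0.349% that is below the 1.43% of counting error, and miR-674-3p had 457, 458 and 462 CPM. miR-191-5p, often used as a reference miRNA, had 4644, 4654 and 4690 CPM with a CV of 0.519%. The other names among the 10 narrowest were let-7j, let-7f-5p, miR-324-5p, miR-26b-5p, miR-107-3p, miR-378c and let-7i-5p, with CVs of 0.887 to 1.86%. After TMM scaling these 10 names had CVs of 3.60 to 6.10%, with 5.54% for miR-191-5p, and none of them remained among the 10 narrowest. The TMM factors of the 3 libraries were 1.05, 0.997 and 0.952, so a name level in CPM was not level on the bulk of miRNAs.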

How the data were processed

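Small RNA libraries of total RNA from EPC cultures (QIAseq miRNA Library Kit) were sequenced on an Illumina NextSeq. The study's methods name Trimmomatic for adapter removal and mirDeep2 with bowtie for mapping to mm10 and quantification against miRBase release 22, and bcl2fastq 20.0.422 is named by the submitters' processing notes. The authors deposited raw counts of reads for each mature miRNA on each precursor. Reads that fit more than 1 precursor were counted at all of them, so repeated rows of a name held 28.7 to 29.2% of the column totals (21973143 to 23330772 counts), and the row with the highest total over all 6 columns was kept per name. Collapsing by molecular identifiers was not stated.

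Groups were taken from the sample titles. Air replicate 3 has the column header Air-4, whereas the study lists the same total of 21973143 reads under Air-3. Whether a further air library was made is not stated. CPM were computed over the kept rows of each air library, and no test was run. Names were ranked by mean CPM, grouped by bases 2 to 8 of the RefSeq sequence, paired by precursor and placed on GRCm38 with GENCODE (1165 of 1193 precursors). Names in the text are the 20 highest, the defining and highest members of each list, the 10 leading seed families, the 10 leading and 5 most even arm pairs, the 5 leading clusters and the 10 widest and 10 narrowest CVs from 100 CPM. Other names were chosen after their values were seen. The members and lists were chosen with earlier results of these data known. Alternatives were TMM (edgeR 4.0.16) and DESeq2 1.42.0 size factors in R 4.3.3, other row choices, minimums, seeds and distances, and leaving out each library. Scripts ran in Python 3.11.15 with pandas 2.3.3, scipy 1.17.1 and matplotlib 3.10.9 and were tested on simulated data.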

Additional observations from a re-analysis of the deposited data

How the results depend on the processing

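For 34 values recomputed under 20 settings, 249 of 294 alternative values stayed within a set limit and 45 moved. The limit was 1 SD between libraries, or 1.5 times for counts. For the median CV it was 5.31 percentage points, a spread of the CVs over miRNA names rather than between libraries. None of the 45 came from TMM or DESeq2 scaling. Names detected, the share of the 10 highest names and the share from clusters cannot change when a whole library is scaled. Scaling factors also nearly cancel in a mean of 3 libraries. The spread did change with TMM. The SD of the let-7 family went from 1875 to 10008 CPM, and that of miR-29 from 2422 to 1255 CPM. TMM also replaced all 10 of the names with the narrowest spread and changed which library was most often highest. Summing the rows of a name counts multi-copy names more than once and lowers the share of single-copy names. It gave 61.9% for the 10 highest names, 23573, 24807 and 24029 CPM for the endothelial, haematopoietic and myeloid lists, 187179, 184982, 83915, 72411 and 80408 CPM for the let-7, miR-125, miR-21, miR-29 and miR-16 families, 76.2% for the 10 highest seed families and 76761 CPM for the cluster of mir-16-1 and mir-15a. The share of the 10 highest names was 47.3% in the table as deposited and 49.0% with miR-125b-5p left out. A minimum of 10 counts in each air library left 615 names. The let-7 family had 166598 CPM with bases 2 to 7 as the seed. Pairs numbered 294 (167 with a dominant 5p arm) from 1 CPM, 117 (69) from 100 CPM and 283 with shared names included. The last number includes precursor copies that repeat the same counts. With dominance set at over 90%, 77 pairs were 5p and 52 were 3p.

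Leaving out each air replicate gave 984 to 1005 names detected in the libraries that remained, 52.5 to 53.2% for the 10 highest names, 107 to 109 pairs with a dominant 5p arm and a median CV of 4.65 to 7.47%. After the data were seen, 1 name per mature sequence and placing names without a sequence by number and arm were added. With 1 name per sequence the 10 highest names held 54.1%, the let-7 family had 168120 CPM and the stromal list 60702 CPM. Placing names without a sequence moved the miR-34, miR-30 and miR-23 families from 23893, 13271 and 18552 CPM to 26350, 19672 and 25273 CPM. With 3 libraries of 1 cage, an SD is imprecise. No paired analysis was possible because no comparison between groups was made.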

Other observations

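Some larger clusters outside the 5 highest, chosen after their values were seen, were also expressed. The mir-17 to mir-92a-1 cluster of 6 precursors, which promotes proliferation, had 5677, 5325 and 4284 CPM and was lowest in air replicate 3. The 71 precursors of a repeat-rich cluster on chromosome 2, with mir-466 and mir-669 members, had 4305, 3782 and 3506 CPM, with the leading miR-669o-3p at 13.9% of the sum. Many of them are near-identical copies whose reads cannot be told apart, and the sum is inflated by names with the same counts. miR-669o-3p and miR-669a-3p both had 577, 542 and 494 CPM. miR-466b-3p, miR-466c-3p and miR-466p-3p each had 383, 320 and 297 CPM. The mir-322, mir-503, mir-351, mir-542 and mir-450 cluster on chromosome X had 3141, 3238 and 3558 CPM, of which miR-322-5p gave 66.0%. The mir-182, mir-96 and mir-183 cluster, known from sensory cells, had 858, 646 and 716 CPM.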
